A study of Mus musculus with 6 samples.

Results

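The 10 genes described here are the core of the antioxidant response that the transcription factor NRF2 controls: *Nfe2l2*, *Keap1*, *Nqo1*, *Hmox1*, *Gclc*, *Gclm*, *Srxn1*, *Txnrd1*, *Slc7a11* and *Osgin1*. They were chosen by symbol from a fixed list, with earlier results of these data known. Each symbol matched 1 of the 25403 genes in the count table. All 10 passed the filter on low counts and were among the 14496 genes tested. Poly(A) RNA was sequenced from the livers of 3 wild-type C57BL6/J mice (WT) and 3 mice with a whole-body *Themis* knockout (*Themis*-KO). THEMIS is a signaling protein best known from developing T cells, and a whole-body knockout removes the gene from immune cells as well as from hepatocytes. Every mouse in both groups received the MASH diet (20 kcal% from fructose, 40 kcal% from fat, with cholesterol at 2%) for 3 months from an age of 10 to 12 weeks, so there is no chow-fed group with which to compare. MASH is metabolic dysfunction–associated steatohepatitis, a fatty liver with inflammation and cell injury. Levels are given as CPM, counts scaled to the size of the library after TMM normalization for its composition, and errors of group means are SDs (n = 3 livers).

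NRF2, the product of *Nfe2l2*, is held in the cytoplasm by KEAP1, which recruits a ubiquitin ligase and has it degraded. Oxidants and electrophiles modify cysteines of KEAP1, NRF2 then accumulates, enters the nucleus with a small MAF protein and binds antioxidant response elements near genes for glutathione synthesis, thioredoxin recycling, quinone reduction and heme breakdown. The control is thus largely on the protein, and mRNA counts of *Nfe2l2* and *Keap1* do not measure it; the mRNAs of the target genes are its usual readout in liver, where glutathione is made in large amounts.

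Gene counts summed to between 20679642 and 25649767 per library. Y-linked *Ddx3y* was between 36.3 and 45.4 CPM in all 6 livers, so the labels, which give no sex, hide no mixture of sexes between the groups. *Themis* itself had 8.07, 25.6 and 12.0 CPM in WT replicates 1, 2 and 3 and 8.63, 7.74 and 9.97 CPM in *Themis*-KO replicates 1, 2 and 3. The groups overlapped (log2 fold change −0.79 with an SE of 0.38, edgeR adjusted p = 0.199). The sources used here do not say which part of the gene was deleted, so counts over the whole gene do not check the labels. For this reason the groups are named by their labels throughout. Among the livers labelled *Themis*-KO, replicate 3 stood apart: the chi-square per degree of freedom between whole libraries was 9.80 for replicates 1 and 2, but 41.0 and 42.3 for replicate 3 against each of them, and between 36.0 and 76.0 for replicate 3 against the livers labelled WT. The pairs of livers labelled WT ranged from 27.6 to 36.1. A mitochondrial transcript type set WT replicates 1 and 2 apart from the remaining 4 livers, with *Gm28438* taking 96.6% and 96.8% of the summed counts of *Gm28438* and *mt-Nd3* against at most 3.26% in the others. That split is partly confounded with the label, and with it as a covariate none of the 10 members had an adjusted or an unadjusted p under 0.05 in edgeR's test, where 0.0207% of all genes had an adjusted one. The log2 fold changes in that fit were 1.12 for *Gclc*, 1.5 for *Hmox1*, 0.76 for *Nqo1*, 0.72 for *Srxn1* and 0.97 for *Slc7a11*. No liver labelled *Themis*-KO shares the type of WT replicates 1 and 2. The label difference in that fit thus compares the livers labelled *Themis*-KO with WT replicate 3 alone. It cannot tell the label from that single liver.

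Of the 10 members, 9 had a positive log2 fold change (livers labelled *Themis*-KO over WT), and 5 (*Slc7a11*, *Hmox1*, *Gclc*, *Osgin1* and *Srxn1*) were at least 2-fold higher. *Srxn1* was the only one with an adjusted p under 0.05 in edgeR's quasi-likelihood test, while 7 had an unadjusted p under 0.05, which 30.7% of all genes tested had. Over all genes tested, 9.11% passed the adjusted threshold, and 4.97% passed it with a higher level in livers labelled *Themis*-KO, so 1 of 10 members is near the background. The median log2 fold change of the members was 0.93, beside 0.0095 over all genes tested. In 4 members (*Nfe2l2*, *Nqo1*, *Gclc* and *Srxn1*) every liver labelled *Themis*-KO lay above every liver labelled WT. This was so for 17.7% of all genes tested. With DESeq2 the same 4 members had an adjusted p under 0.05, where 16.3% of all genes did. Without *Themis*-KO replicate 3, 7 members had one, where 28.8% of all genes did.

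**Figure D1:**
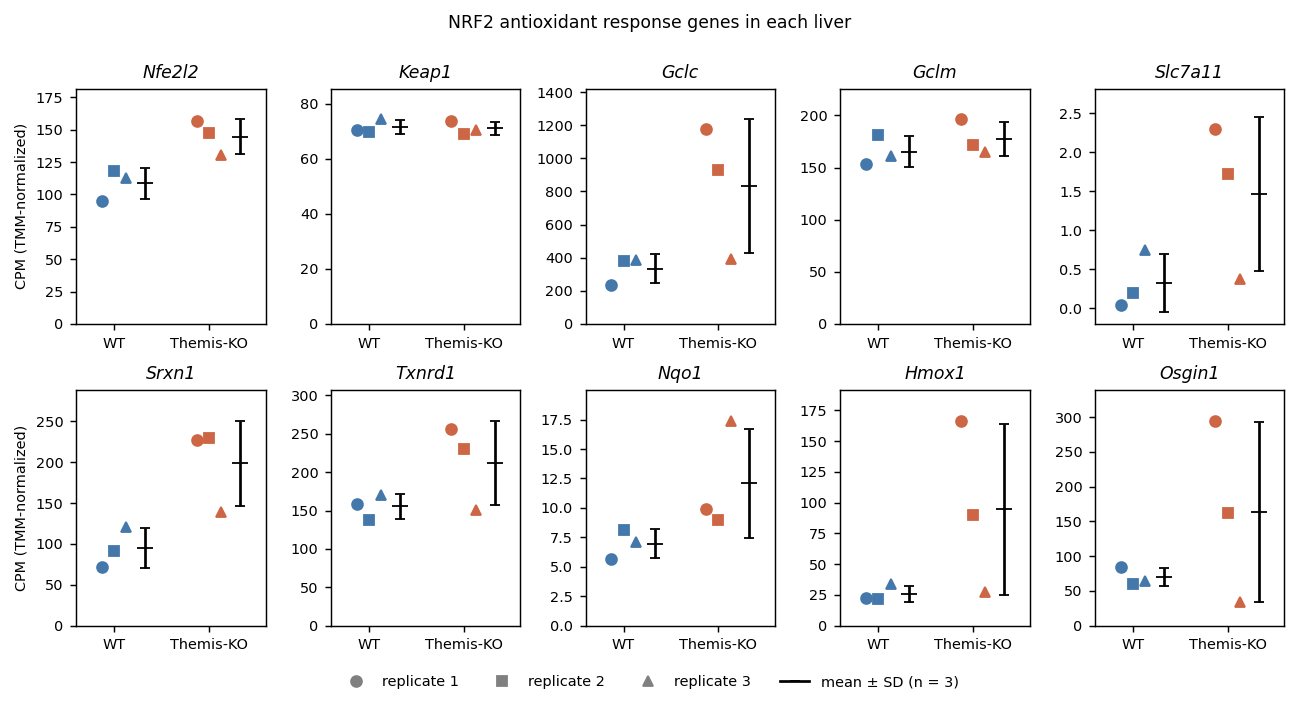
CPM (TMM-normalized, linear axes) of each of the 10 members in the 3 livers labelled WT (blue) and the 3 labelled Themis-KO (orange), with the replicate number as the marker shape and the mean ± SD (n = 3) as a black bar. Themis-KO replicates 1 and 2 lie above every WT liver in 8 of the 10 genes, and Themis-KO replicate 3 lies within the WT range in 5. The share of all genes tested with such an order was not counted.

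Short stretches of the promoters of 4 members are shown because they hold the letters TGACNNNGC, the core of the antioxidant response element, in the window from 250 bases before to 50 bases after a RefSeq start site (GRCm38.p6). The capitals mark those letters. Each stretch is read on the strand on which the core runs 5′ to 3′, with 10 bases on either side. The core lies on the strand opposite to the gene for *Srxn1*, *Gclm* and *Txnrd1*, and on the strand of the gene for *Nfe2l2*.
*Srxn1* (chr2:152105542-152105570, minus strand, in the 5′ untranslated part of the first exon): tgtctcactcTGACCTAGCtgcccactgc
*Gclm* (chr3:122245413-122245441, minus strand, upstream of the gene and in no annotated exon): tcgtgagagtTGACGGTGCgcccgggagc
*Txnrd1* (chr10:82859104-82859132, minus strand, before an internal start site, inside the gene and in no annotated exon): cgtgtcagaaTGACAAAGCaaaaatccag
*Nfe2l2* (chr2:75704885-75704913, minus strand, upstream of the gene and in an exon of *E030042O20Rik*): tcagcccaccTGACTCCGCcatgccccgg

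The RefSeq table held promoters of 8 members, all but *Hmox1* and *Gclc*. Searched on both strands, the core was present in 4 of their 10 promoters, with 3 of the 10 from *Txnrd1*, and in 12.4% of all 32851 promoters. The first bases of the core are shared with TGANTCA, the element of AP-1 factors, which was present in 2 of the 10 (*Srxn1* and *Osgin1*) and in 7.81% of all promoters. No core printed above overlapped an AP-1 element. Only TGACNNNGC was searched as the core, so an element spelled otherwise would be missed. A match is a matter of letters, and no binding was measured.

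*Nfe2l2* and *Keap1* are the regulators. *Nfe2l2* (ENSMUSG00000015839, minus strand of chromosome 2, 75675513 to 75704641, all positions in GRCm38) was at 95.3, 118 and 113 CPM in WT replicates 1, 2 and 3 and at 157, 147 and 130 CPM in *Themis*-KO replicates 1, 2 and 3. The groups did not overlap, with means of 109 ± 11.9 and 145 ± 13.4 CPM (SD, n = 3 each). The difference was 0.41 on the log2 scale (SE 0.11, edgeR adjusted p = 0.0588).

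*Keap1* (ENSMUSG00000003308, reverse strand of chromosome 9 from 21229730 to 21239361) differed least between the groups, at 70.6, 69.8 and 74.4 CPM in livers labelled WT and 73.9, 69.1 and 70.4 CPM in livers labelled *Themis*-KO. The difference was −0.0099 on the log2 scale (SE 0.075, edgeR adjusted p = 0.939). Its sign changed with the scaling of the libraries, to 0.13 with total counts alone. An antisense gene, *Gm16754*, overlaps an exon of *Keap1* and had 205 counts over the 6 livers. Whether the counting used strand is not given in the sources used here, so reads of such overlapping genes cannot be told apart.

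The glutathione members are both subunits of glutamate-cysteine ligase, which makes the rate-limiting step of glutathione synthesis, and the cystine importer that supplies cysteine for it. *Gclc* (ENSMUSG00000032350, forward strand of chromosome 9 from 77754535 to 77794485), the catalytic subunit, was at 233, 381 and 384 CPM in WT replicates 1, 2 and 3 and at 1180, 928 and 391 CPM in *Themis*-KO replicates 1, 2 and 3. *Themis*-KO replicates 1 and 2 were thus more than 2-fold above every liver labelled WT, whereas replicate 3 exceeded the highest of them by only 6.76 CPM. The difference was 1.32 on the log2 scale (SE 0.38, edgeR adjusted p = 0.0657), and ran from 0.98 (adjusted p = 0.204) without *Themis*-KO replicate 1 to 1.64 (adjusted p = 0.0034) without *Themis*-KO replicate 3.

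*Gclm* (ENSMUSG00000028124, forward strand of chromosome 3 from 122245557 to 122270732), the modifier subunit that lowers the ligase's need for glutamate, differed little, at 153, 182 and 161 CPM in livers labelled WT and 196, 172 and 165 CPM in livers labelled *Themis*-KO. The groups overlapped, and differed by 0.10 on the log2 scale (SE 0.10, edgeR adjusted p = 0.524). Exons of *Gm17494* (502 counts over the 6 livers) and *Gm6061* (2 counts) overlap those of *Gclm*. The balance of the subunits differed between livers. Per kilobase of annotated exon, the level of *Gclc* was 2.54, 3.51 and 3.99 times that of *Gclm* in WT replicates 1, 2 and 3. In *Themis*-KO replicates 1, 2 and 3 it was 10.0, 9.03 and 3.96 times. Replicate 3 was again within the WT range.

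*Slc7a11* (ENSMUSG00000027737, reverse strand of chromosome 3 from 49892526 to 50443614), the light chain of the cystine/glutamate antiporter, was barely expressed in liver. It had 1, 4 and 19 counts in livers labelled WT and 54, 40 and 8 counts in livers labelled *Themis*-KO. In CPM these are 0.046, 0.19 and 0.75 against 2.29, 1.72 and 0.38. The log2 fold change was the largest of the 10, at 2.08, but its error was also the largest (SE 0.83, edgeR adjusted p = 0.138), and it rose to 3.59 without WT replicate 3.

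The thioredoxin members keep protein thiols reduced. *Srxn1* (ENSMUSG00000032802, forward strand of chromosome 2 from 152105516 to 152111376) encodes sulfiredoxin, which restores peroxiredoxins that peroxide has over-oxidized. It was at 71.7, 91.8 and 120 CPM in WT replicates 1, 2 and 3 and at 227, 230 and 139 CPM in *Themis*-KO replicates 1, 2 and 3, without overlap. *Srxn1* rose in livers labelled *Themis*-KO, with means of 94.6 ± 24.4 and 199 ± 51.7 CPM (SD, n = 3 each) and a log2 fold change of 1.07 (SE 0.24, edgeR adjusted p = 0.0392). The call held without WT replicate 3 (adjusted p = 0.0378) and without *Themis*-KO replicate 3 (adjusted p = 0.0047). It was lost when any other liver was left out, with an adjusted p of 0.137 without WT replicate 1, 0.121 without WT replicate 2, 0.131 without *Themis*-KO replicate 1 and 0.135 without *Themis*-KO replicate 2. The log2 fold changes in those 4 fits were 0.90, 1.05, 0.96 and 0.94.

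*Txnrd1* (ENSMUSG00000020250, forward strand of chromosome 10 from 82833951 to 82897712), the cytosolic thioredoxin reductase, was at 158, 138 and 170 CPM in livers labelled WT and 256, 230 and 151 CPM in livers labelled *Themis*-KO. *Themis*-KO replicate 3 lay between the WT livers. The difference was 0.45 on the log2 scale (SE 0.19, edgeR adjusted p = 0.155), and ran from 0.29 (adjusted p = 0.427) without *Themis*-KO replicate 1 to 0.63 (adjusted p = 0.0077) without *Themis*-KO replicate 3.

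*Nqo1* (ENSMUSG00000003849, reverse strand of chromosome 8 from 107388225 to 107403206), which reduces quinones by 2 electrons at once and is the most used marker of NRF2 activity, had its own order of livers. It was at 5.64, 8.11 and 7.10 CPM in WT replicates 1, 2 and 3 and at 9.94, 8.95 and 17.4 CPM in *Themis*-KO replicates 1, 2 and 3. The groups did not overlap, and *Themis*-KO replicate 3, low for most other members, was the highest of the 6. The difference was 0.80 on the log2 scale (SE 0.27, edgeR adjusted p = 0.0950), and 0.43 without *Themis*-KO replicate 3.

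*Hmox1* (ENSMUSG00000005413, forward strand of chromosome 8 from 75093621 to 75100589) encodes heme oxygenase 1, which opens the heme ring and is made by macrophages that clear red cells as well as by stressed hepatocytes. Its level was 22.7, 21.6 and 33.5 CPM in livers labelled WT and 166, 90.1 and 27.1 CPM in livers labelled *Themis*-KO. *Themis*-KO replicates 1 and 2 were well above all WT livers and replicate 3 lay among them. The difference was 1.87 on the log2 scale (SE 0.55, edgeR adjusted p = 0.0710). It ran from 1.17 without *Themis*-KO replicate 1 to 2.29 (adjusted p = 0.0025) without *Themis*-KO replicate 3.

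*Osgin1* (ENSMUSG00000074063, forward strand of chromosome 8 from 119434124 to 119446256), an oxidative stress–induced growth inhibitor, spread widely among the livers labelled *Themis*-KO. It was at 84.4, 60.1 and 64.3 CPM in livers labelled WT and at 294, 162 and 34.4 CPM in livers labelled *Themis*-KO, so that one knockout-labelled liver was the highest and another the lowest of the 6. The difference was 1.23 on the log2 scale (SE 0.61, edgeR adjusted p = 0.212), and ran from 0.49 without *Themis*-KO replicate 1 to 1.70 (adjusted p = 0.0041) without *Themis*-KO replicate 3.

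**Figure D2:**
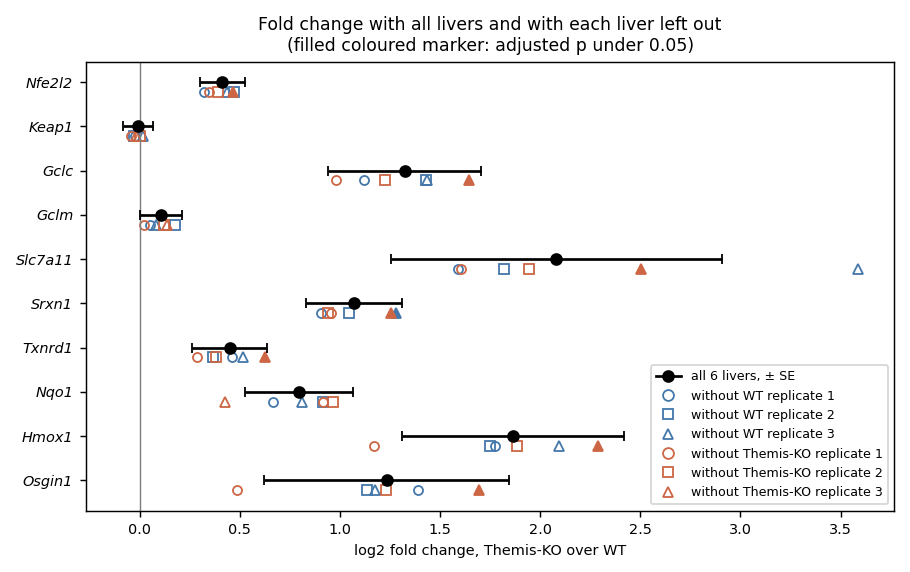
Log2 fold change of each member, livers labelled Themis-KO over WT, with all 6 livers (black, ± SE) and with each liver left out in turn (coloured markers, filled where the adjusted p was under 0.05). Leaving out Themis-KO replicate 3 moves Hmox1 from 1.87 to 2.29 and Osgin1 from 1.23 to 1.70, and 7 markers for that liver are filled.

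Most members shared an order among the livers labelled *Themis*-KO. Replicate 3 was the lowest of these 3 livers in 8 of the 10 genes (all but *Keap1* and *Nqo1*), and replicate 1 the highest in 8 (all but *Srxn1* and *Nqo1*). Replicates 1 and 2 both exceeded every liver labelled WT in 8 genes (all but *Keap1* and *Gclm*). Replicate 3 was within the WT range in 5 (*Keap1*, *Hmox1*, *Txnrd1*, *Slc7a11* and *Gclm*) and below it in *Osgin1*. This order was seen in the same data that it describes, and no test was run on it. The share of all genes tested with such an order was not counted, so these counts cannot show it to be particular to the members. Leaving out *Themis*-KO replicate 3 also raised the share of all genes with an edgeR adjusted p under 0.05, from 9.11% to 28.8%.

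Per kilobase of annotated exon, *Gclc* had the highest level of the 10 in livers labelled WT, at 88.4 ± 23.0 CPM per kilobase (SD, n = 3). *Srxn1* (33.6 ± 8.66), *Nfe2l2* (28.7 ± 3.14), *Gclm* (26.3 ± 2.32), *Osgin1* (26.0 ± 4.85) and *Txnrd1* (21.9 ± 2.31) followed, and each of these overlapped the next of them. *Keap1* (15.3 ± 0.53) and *Hmox1* (14.8 ± 3.75) overlapped each other below them. *Nqo1* was at 4.48 ± 0.80 and *Slc7a11* at 0.024 ± 0.027 CPM per kilobase. In livers labelled *Themis*-KO, *Gclc* was at 221 ± 107, *Srxn1* at 70.5 ± 18.3 and *Hmox1* at 54.0 ± 39.8 CPM per kilobase. Lengths are the union of all annotated exons, which lowers the value of genes with many isoforms.

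Beyond the members, 74 genes of the same biology were set out in 7 lists: regulators, glutathione, thioredoxin, NADPH supply, detoxification, heme and iron, and superoxide and peroxide removal. Of the 72 tested, 9 rose and 0 fell in livers labelled *Themis*-KO at an adjusted p under 0.05 in edgeR's quasi-likelihood test, and 26 had an unadjusted p under 0.05, where 30.7% of all genes did. The called genes are 12.5% of the lists, against 9.11% of all genes tested, and all in the direction in which 4.97% of genes passed. The lists were chosen with earlier results of these data known. These shares therefore describe the lists and cannot test them. With DESeq2 15 rose and 2 fell, where 16.3% of all genes were called. The count rested on single livers, as did that of all genes. It was 0 without WT replicate 2 or *Themis*-KO replicate 1 or 2, and 1 without WT replicate 1. In those fits 0.136% to 0.512% of all genes were called. Without *Themis*-KO replicate 3 it was 22, of which 8 were lower, where 28.8% of all genes were called. The median log2 fold change over the 72 genes was 0.096.

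In the detoxification list 4 of 11 genes rose. *Cbr3*, a carbonyl reductase that clears reactive carbonyls and quinones, was at 1.42, 3.22 and 4.22 CPM in WT replicates 1, 2 and 3 and at 12.2, 11.8 and 16.2 CPM in *Themis*-KO replicates 1, 2 and 3. Its log2 fold change, 2.17 (SE 0.34, edgeR adjusted p = 0.0188), was above the 2.08 of *Slc7a11*, and *Themis*-KO replicate 3 was the highest liver, as for *Nqo1*. The efflux pumps *Abcc1* (log2 fold change 1.10, SE 0.21, adjusted p = 0.0304), which exports glutathione conjugates, and *Abcc4* (1.03, SE 0.19, adjusted p = 0.0273) rose as well. The remaining gene, named after its value was seen, was *Cbr1* (0.95, SE 0.17, adjusted p = 0.0252). Its level was 47.8, 72.7 and 76.1 CPM in livers labelled WT and 118, 134 and 127 CPM in those labelled *Themis*-KO.

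In the glutathione list 3 of 14 genes rose. They were *Gpx3* (log2 fold change 1.04, SE 0.19, adjusted p = 0.0255), a secreted glutathione peroxidase, *Slc3a2* (0.66, SE 0.16, adjusted p = 0.0457), the heavy chain that partners *Slc7a11*, and *Gss* (0.63, SE 0.13, adjusted p = 0.0345), the synthase that completes glutathione. *Gss* was at 85.4, 117 and 102 CPM in livers labelled WT and 174, 157 and 141 CPM in those labelled *Themis*-KO. *Gsr*, which recycles oxidized glutathione, did not overlap between the groups (92.4, 102 and 112 CPM against 148, 144 and 116) but had an adjusted p of 0.0689.

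In the NADPH list 1 of 8 genes rose, *Pgd* of the pentose phosphate pathway (log2 fold change 0.63, SE 0.13, adjusted p = 0.0345), with 88.4, 95.7 and 120 CPM in livers labelled WT and 151, 147 and 175 CPM in those labelled *Themis*-KO. Its neighbour in that pathway, *G6pdx*, had a log2 fold change of 0.34 (SE 0.32, edgeR adjusted p = 0.496), and malic enzyme *Me1* one of −0.022 (SE 0.23, adjusted p = 0.956). *Nnt*, which makes mitochondrial NADPH, had 97.9, 137 and 98.1 CPM against 88.0, 79.9 and 55.4 CPM, a log2 fold change of −0.58 (SE 0.20, edgeR adjusted p = 0.0980). C57BL6/J mice are known to carry a deletion in *Nnt*, which counts over the whole gene do not show. A further row of the table carries the same symbol (log2 fold change −0.30, adjusted p = 0.442), and reads could be divided between them, so the value is uncertain.

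The regulator list held no called gene among 13, with 4 at an unadjusted p under 0.05 in edgeR's test and 2 (*Maff* and *Sqstm1*) called by DESeq2. *Sqstm1*, the autophagy adaptor p62 that binds KEAP1, was at 414, 408 and 465 CPM in livers labelled WT and 1057, 878 and 445 CPM in those labelled *Themis*-KO, with the same order among the latter as *Gclc*. On the log2 scale it differed by 0.89 (SE 0.28, adjusted p = 0.0791). The small MAF partners, named after their values were seen, differed in sign. *Maff* had 9.63, 8.45 and 14.0 against 64.1, 38.5 and 12.8 CPM (log2 fold change 1.84, SE 0.51, adjusted p = 0.0604), and *Mafk* had 42.6, 35.8 and 40.3 against 77.4, 60.3 and 38.9 CPM (0.57, SE 0.22, adjusted p = 0.130). *Mafg* was lower without overlap, at 112, 112 and 92.0 against 90.0, 84.9 and 85.1 CPM (−0.28, SE 0.099, adjusted p = 0.105). The related factor *Nfe2l1* (0.092, SE 0.080, adjusted p = 0.462) and the repressor *Bach1* (0.15, SE 0.22, adjusted p = 0.661) had small differences.

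The thioredoxin list held no called gene among 12, with 1 at an unadjusted p under 0.05 in edgeR's test and 0 called by DESeq2. *Prdx1*, an abundant peroxiredoxin and a substrate of sulfiredoxin, was between 598 and 642 CPM in all 6 livers (log2 fold change 0.028, SE 0.081, adjusted p = 0.839). The heme and iron list held no called gene among 10, with 2 at an unadjusted p under 0.05 in edgeR's test and 1, *Cd163*, lower by DESeq2. The ferritin subunits *Fth1* (0.25, SE 0.11, adjusted p = 0.174) and *Ftl1* (0.19, SE 0.11, adjusted p = 0.247) had small positive values. In the list of superoxide and peroxide removal, *Sod3*, the extracellular superoxide dismutase, rose (0.53, SE 0.10, adjusted p = 0.0302). The mitochondrial *Sod2* (−0.21, SE 0.087, adjusted p = 0.148) and catalase, *Cat* (−0.32, SE 0.14, adjusted p = 0.167), had negative values that did not pass.

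**Figure D3:**
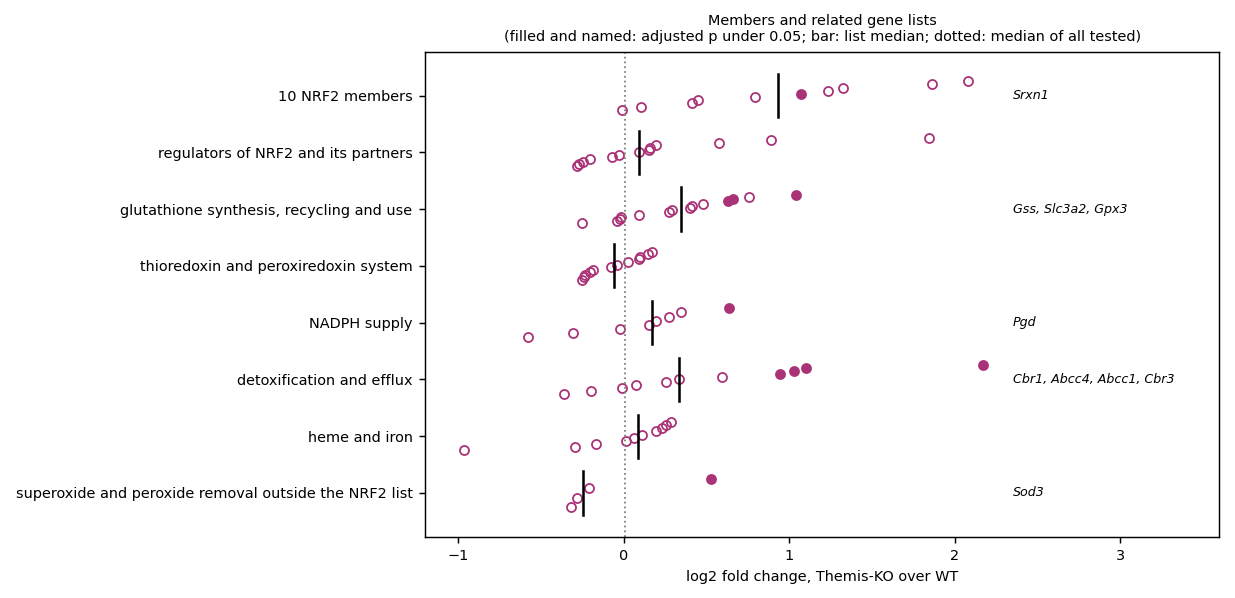
Log2 fold change (livers labelled Themis-KO over WT) of the 10 members and of the 72 tested genes of the 7 related lists, 1 point per gene, filled and named at the right where the adjusted p was under 0.05. Black bars are list medians (0.93 for the members) and the dotted line is the median of all genes tested (0.0095); all 10 filled points are positive.

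In whole liver, more cells of a type and more RNA per cell give the same signal, and several members are expressed outside hepatocytes. Of 12 macrophage markers 3 rose (*Cd68*, *Trem2* and *Gpnmb*), and their summed level was 403 to 658 CPM in livers labelled WT and 685 to 890.1 CPM in livers labelled *Themis*-KO. The 9 cholangiocyte markers summed to 174 to 216 CPM against 407 to 641 CPM (2 rose), and the 9 hepatic stellate cell markers to 364 to 414 CPM against 543 to 595 CPM (5 rose). Most of the cholangiocyte sum was *Spp1* in every liver, so that sum mainly follows a single gene. *Spp1* was at 137 to 180 CPM in livers labelled WT and at 366 to 571 CPM in livers labelled *Themis*-KO. Of the 9 cholangiocyte markers, 8 had a positive log2 fold change. The 10 hepatocyte markers summed to 64110 to 66761 CPM against 48891 to 55149 CPM, with 2 lower. The 7 endothelial markers summed to 222 to 233 CPM against 238 to 277 CPM (1 rose).

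The marker sums differed in their order of livers. The 4 neutrophil markers in the table summed to 6.10, 5.37 and 9.08 CPM in WT replicates 1, 2 and 3. In *Themis*-KO replicates 1, 2 and 3 they summed to 21.1, 14.9 and 6.90 CPM, the same order as *Hmox1*, *Osgin1* and *Gclc*. The hepatic stellate cell sum had this order too, at 595, 579 and 543 CPM in the same 3 livers. Neutrophil counts were low, with 1 to 8 per liver for *Retnlg* and 7 to 35 for *S100a8*. None of the 3 neutrophil markers tested was called (3 had an unadjusted p under 0.05 in edgeR's test, and 1 was called by DESeq2). The macrophage sum was 706, 890.1 and 685 CPM in *Themis*-KO replicates 1, 2 and 3, and 658 CPM in WT replicate 3. The T cell markers summed to at most 7.31 CPM in any liver, and the erythroid markers to 261 to 292 CPM against 212 to 323 CPM, with 1 of each list lower. No marker in the table was at 0 in every liver. The part of these cell types in the members' levels was not tested.

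**Figure D4:**
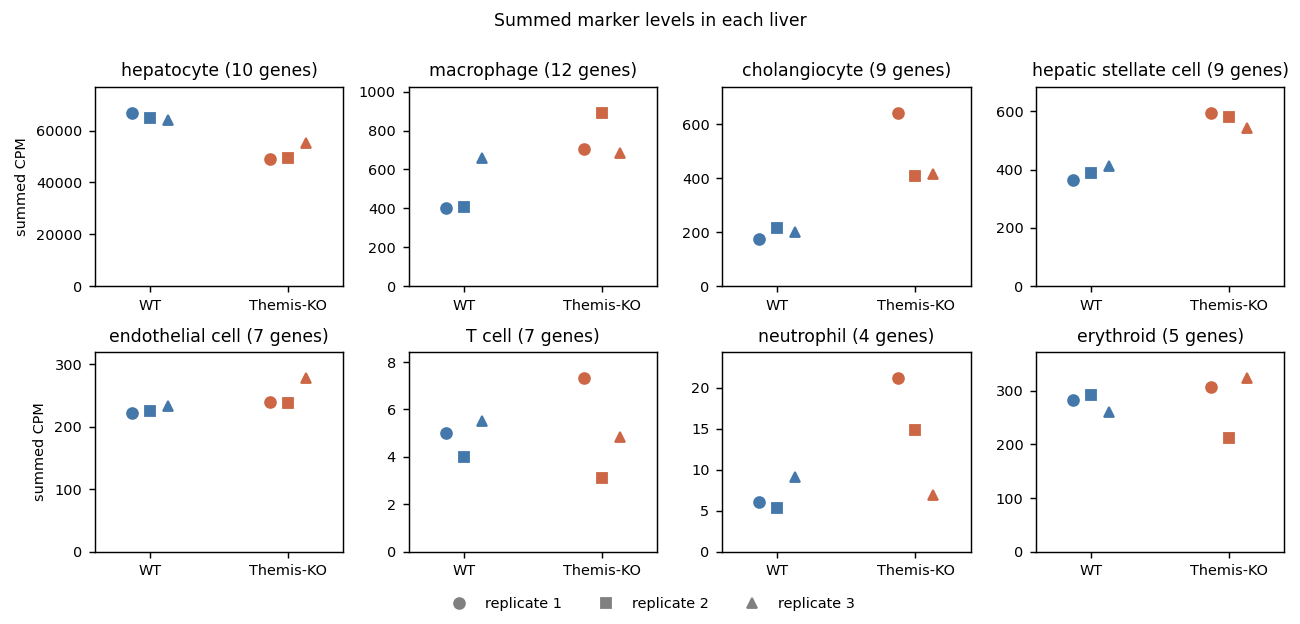
Summed CPM of the marker genes of 8 cell types in each liver labelled WT (blue) or Themis-KO (orange), with the replicate number as the marker shape and linear axes from 0. The macrophage, cholangiocyte, hepatic stellate cell and endothelial sums are higher and the hepatocyte sum lower in every Themis-KO liver than in any WT liver. Most of the cholangiocyte sum is Spp1 in every liver. Among the 3 Themis-KO livers, the neutrophil sum falls from 21.1 to 6.90 CPM and the hepatic stellate cell sum from 595 to 543 CPM.

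The genes whose profile over the 6 livers lay nearest to that of *Srxn1*, the called member, were *Tmem43*, *Tlnrd1* and *B430306N03Rik*. Their Euclidean distances to it, between log2 CPM values centred on each gene's mean, were 0.21, 0.21 and 0.24, where the length of the *Srxn1* profile itself is 1.52. Their log2 fold changes were 1.02 (edgeR adjusted p = 0.0426), 0.97 (adjusted p = 0.0402) and 1.00 (adjusted p = 0.0626).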

How the data were processed

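Poly(A) RNA of 3 livers labelled WT and 3 labelled *Themis*-KO was sequenced. The authors mapped reads to GRCm38 with STAR (2.7.8a) and estimated counts per gene with RSEM (1.3.3); the labels also list cutadapt (2.3). The deposited expected counts are whole numbers without normalization. RSEM divides reads that match several genes among them. The annotation release is not given in the sources used here.

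Genes were filtered with filterByExpr, which left out 10907 of 25403, scaled by TMM and compared by edgeR's quasi-likelihood test (edgeR 4.0.16, R 4.3.3) on all 6 livers without covariates, with Benjamini-Hochberg adjustment over all genes tested and a threshold of 0.05. The SE is the log2 fold change divided by the square root of F. With 3 livers a group, an exact two-sided permutation test cannot go below p = 0.1, so none is given. Each label is taken as 1 mouse. No library pair came near sampling noise (chi-square at least 9.80 per degree of freedom), and none was counted as a duplicate.

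Every member is described, with up to 3 called genes of each related list, 12 fixed genes whatever their values and the nearest profiles to the called member (prior count of 2 on the log2 scale). Members and lists were chosen with earlier results of these data known. Coordinates and exon lengths are from GENCODE vM21 (GRCm38), promoters from RefSeq (GRCm38.p6). The fit was also run on simulated counts of independent livers, with no outlying liver and no mitochondrial split. It called 90 of 100 genes changed by 1 on the log2 scale and 98 of 100 changed by 1.5. Of its 201 calls, 13 were unchanged genes. The simulation cannot show how far calls in these livers depend on single livers. Alternatives were other scalings (RLE, upper quartile, total counts), DESeq2 (1.42.0), no filter on low counts, a minimum of 10 counts in each liver, a block for the replicate number, leaving out each liver, and the mitochondrial transcript type as a covariate.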

Additional observations from a re-analysis of the deposited data

How the results depend on the processing

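The number of members with an adjusted p under 0.05 was 1 in edgeR's test and stayed at 1 with RLE or upper quartile scaling and with at least 10 counts in every liver, where *Slc7a11* was not tested. It was 3 with total counts alone (12.7% of all genes called), 5 without a filter on low counts (8.58%), 4 with DESeq2 (16.3%), and 0 with the mitochondrial transcript type as a covariate (0.0207%; 0 members at an unadjusted p under 0.05 in edgeR's test). With each liver left out it ran from 0 to 7. It was 0 without WT replicate 1 or 2 or *Themis*-KO replicate 1 or 2. There 4 or 5 members had an unadjusted p under 0.05 in edgeR's test, and 0.136% to 0.512% of all genes were called. It was 7 without *Themis*-KO replicate 3, where 28.8% of all genes were called. The related lists held 9 called genes, 16 with total counts alone, 17 without a filter, 17 with DESeq2, 0 with the mitochondrial type (10 unadjusted) and from 0 to 22 with each liver left out, the highest again without *Themis*-KO replicate 3, with 8 of the 22 lower. The groups share replicate numbers and the study's text speaks of pairs of livers. The sources used here do not say what a pair had in common or that the numbers mark it. For each gene the deviation of log2 CPM from its group mean was taken. Between same-numbered livers these deviations had correlations of 0.00028, −0.24 and −0.16. Their mean was −0.13, beside 0.066 between livers with different numbers. With the number as a block, 0 members (5 unadjusted) and 1 gene of the related lists were called in edgeR's test, where 0.428% of all genes were, and *Srxn1* had a log2 fold change of 1.07 (adjusted p = 0.109).

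The log2 fold changes of the 9 members other than *Keap1* were positive in all 125 values under the alternatives. That of *Keap1* changed sign to 0.13 with total counts alone, 0.017 without WT replicate 3 and 0.0034 without *Themis*-KO replicate 2, and ran from −0.042 to 0.017 with each liver left out. Total counts alone moved the median of all genes to 0.15. The causes of these differences were not tested. Depth limits *Slc7a11* most, with as few as 1 count in a liver.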
